A study of Homo sapiens with 12 samples.

Results

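The genes described here are 10 members of the TNF receptor superfamily that are relevant to B cells, out of 46863 gene symbols counted in SU-DHL-4 cells. They are TNFRSF11A, TNFRSF13B, TNFRSF13C, TNFRSF17, CD40, TNFRSF1A, TNFRSF1B, TNFRSF10A, TNFRSF10B and FAS, and they were selected by symbol with earlier results of these data in view. TNFRSF11A was chosen for its low counts after exposure in these same libraries, so that its values are given as a description and without a test. SU-DHL-4 is an established line of diffuse large B-cell lymphoma (DLBCL) of germinal-centre type, labelled wild type and derived from a peritoneal effusion. The cells of 1 such line were exposed for 72 h to DMSO as the control, to 1 µM Entospletinib (Ento), an inhibitor of the kinase SYK, to 0.01 µM AZD5153 (AZD), which inhibits BET bromodomain proteins, or to the combination (Ento+AZD). Polyadenylated RNA was sequenced in 3 libraries per group, which carry the replicate numbers 1, 2 and 3 in every group. The labels do not say whether these came from separate cultures. Unless a fit with no replicate term is named, p-values measure the spread between these libraries that is left once the replicate number is fitted.

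Receptors of this superfamily bind trimeric ligands outside the cell and recruit adaptor proteins inside it. CD40 and RANK, the product of TNFRSF11A, recruit TRAF proteins and lead to NF-κB activity. The receptors for the cytokines BAFF and APRIL, encoded by TNFRSF13C, TNFRSF13B and TNFRSF17, serve the survival and maturation of B cells and plasma cells. FAS and the TRAIL receptors, encoded by TNFRSF10A and TNFRSF10B, carry a death domain through which caspases are engaged. Germinal-centre B cells typically carry CD40 and the BAFF receptor on their surface.

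Each library held between 18121993 and 24675830 counted reads, so that 3 counts, the upper limit that a count of 0 allows, corresponded to 0.118 to 0.169 CPM. CPM is the count scaled by TMM normalization to a common library size, and such limits cover counting error only. All 8 B-cell markers examined were expressed in every library, the highest being MS4A1 (at least 1703.5 CPM). Of 6 T-cell markers CD3D and CD2 were at 0 counts throughout, CD3E had 0.481 to 2.14 CPM, and the list summed to between 0.641 and 2.40 CPM. The 5 myeloid markers summed to between 0.442 and 2.76 CPM, of which ITGAM took 0.344 to 2.33. Of 5 fibroblast and epithelial markers COL1A2 and KRT8 were at 0 counts, and DCN had 37.0 to 126 CPM. Among the 4 plasma-cell markers XBP1 alone exceeded 1 CPM. The summed level of those 4 genes lay between 2.67 and 3.78 CPM with DMSO, 5.06 and 9.37 with Ento, 4.74 and 7.80 with AZD, and 7.05 and 12.3 with Ento+AZD.

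The promoter of TNFRSF11A is shown because this gene had the largest difference from DMSO of the receptors. RefSeq promoter windows were matched by symbol for 5 of the 10 genes, namely TNFRSF11A, TNFRSF13B, TNFRSF1A, TNFRSF1B and FAS, and not for TNFRSF13C, TNFRSF17, CD40, TNFRSF10A and TNFRSF10B. The stretch printed is chr18:62325060-62325286 of GRCh38.p14 on the plus strand, the 227 bases up to the first base annotated as TNFRSF11A by GENCODE v44, written 5′ to 3′ with GC boxes (GGGCGG) in capitals.
TNFRSF11A: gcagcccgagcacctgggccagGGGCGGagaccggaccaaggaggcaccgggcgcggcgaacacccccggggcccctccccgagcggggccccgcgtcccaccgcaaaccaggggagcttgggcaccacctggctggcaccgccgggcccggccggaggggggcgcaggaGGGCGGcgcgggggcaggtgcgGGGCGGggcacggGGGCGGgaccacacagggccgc
Its GC content was 81.9%, against a median of 58% over 35116 promoter windows. The motif GGGCGG, searched on both strands, occurred 4 times here and at least once in 42.6% of all windows. No match was found to CACGTG (in 6.34% of windows), TATAAA (10.7%), CCAAT (32%), TTCNNNGAA (6.57%) or the NF-κB motif (5.21%), which says only that these letters are not in this window. The GC box was also present in the windows of TNFRSF13B, TNFRSF1B and FAS, and not in that of TNFRSF1A.

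TNFRSF11A, the receptor for RANK ligand, lies on chromosome 18 (62325287 to 62391288, plus strand, 10 exons). Its counts were 82, 33 and 64 in the DMSO libraries 1 to 3, 30, 9 and 21 with Ento, 23, 4 and 3 with AZD, and 4, 3 and 5 with Ento+AZD. The exposed libraries of every group were below all DMSO libraries. All Ento+AZD libraries and AZD replicates 2 and 3 were at or near the limit of 3 counts. In normalised terms the mean was 2.43 ± 0.877 CPM (SD, n = 3) with DMSO. The fitted log2 fold change against DMSO was −1.42 (SE 0.30) with Ento, −2.45 (SE 0.34) with AZD and −3.54 (SE 0.41) with Ento+AZD.

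Summed over 3 libraries, 179 counts of TNFRSF11A with DMSO stood against 60 with Ento, 30 with AZD and 12 with Ento+AZD. Allowing for library size, these sums were 2.62-fold lower (95% interval 1.95 to 3.57), 5.20-fold lower (3.52 to 7.93) and 12.2-fold lower (6.80 to 24.0), where the intervals cover counting error only. These intervals are no test of the fall for which the gene was chosen. The order of AZD and Ento+AZD was less certain. AZD replicate 1 held 76.7% of the counts of its group, and the 2 groups overlapped. By replicate number, the log2 ratio of Ento+AZD to AZD was −2.31, −0.58 and 0.96, lower in 2 pairs and higher in 1. The fitted difference between them was −1.09 (SE 0.54), and it was −0.05 without AZD replicate 1 and −0.63 without Ento+AZD replicate 1. Without AZD replicate 1 the difference of AZD from DMSO was −3.48. The interaction term for TNFRSF11A, the departure from additive effects of the agents on the log2 scale, was 0.32 (SE 0.69).

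**Figure D1:**
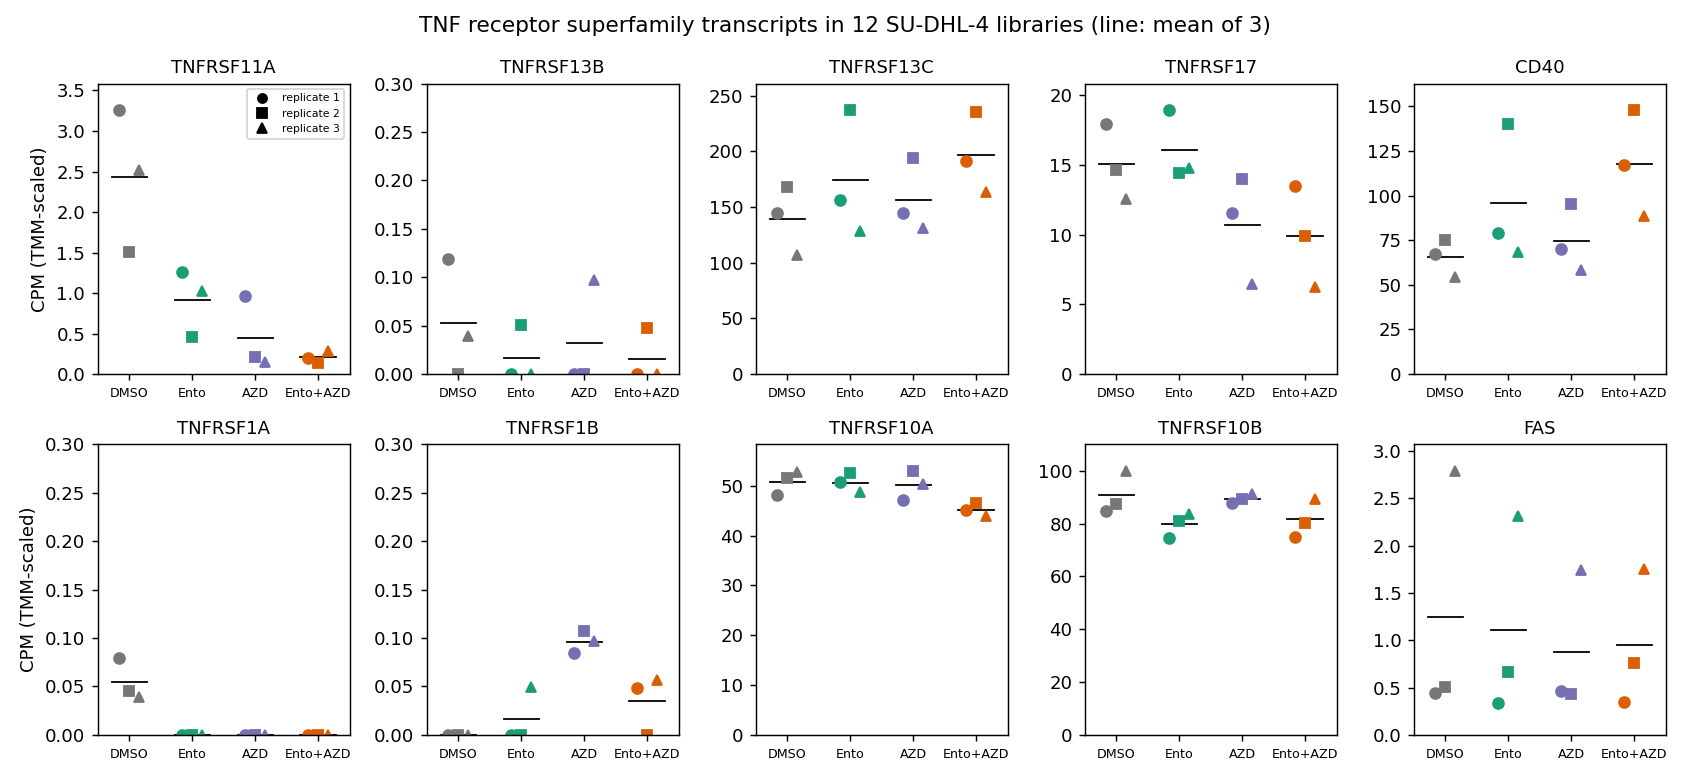
TMM-scaled CPM (vertical axis, linear from 0) of the 10 receptor genes in each of the 12 libraries, by exposure (horizontal axis), with replicate numbers as symbols and the mean of 3 libraries as a line. TNFRSF11A is lower in every exposed library than in any DMSO library, CD40 is highest with Ento+AZD, and replicate 3 stands highest for FAS in each group.

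The 5 genes whose profile over the 12 libraries was most like that of TNFRSF11A were RTKN2, PLEKHH3, TMCC3, KLK1 and UBE2L6. Likeness was the root mean square difference of centred log2 CPM, which was 0.31 for RTKN2, 0.40 for PLEKHH3, 0.42 for TMCC3 and 0.48 for both KLK1 and UBE2L6, against a median of 1.24 over 14165 genes compared. They were chosen for this likeness, and their values are a description. RTKN2 had 81, 31 and 81 counts with DMSO, 38, 6 and 28 with Ento, 24, 5 and 10 with AZD, and 7, 2 and 7 with Ento+AZD. Its replicate 2 was the lowest library of each group, as was that of TNFRSF11A with DMSO, Ento and Ento+AZD. KLK1, tissue kallikrein, was at 4.63 ± 0.514 CPM (SD, n = 3) with DMSO and 1.12 ± 0.164 with Ento+AZD, and its groups with DMSO and with Ento+AZD did not overlap. Of the other receptors TNFRSF17 came closest, at 0.99.

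**Figure D2:**
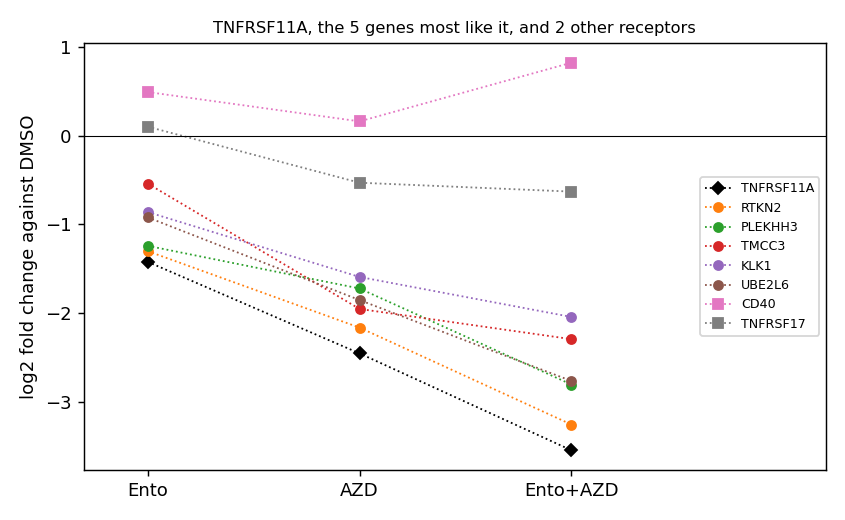
Fitted log2 fold change against DMSO (vertical axis) after Ento, AZD and Ento+AZD (horizontal axis) for TNFRSF11A, the 5 genes most like it, CD40 and TNFRSF17; dotted lines join the values of 1 gene. TNFRSF11A runs from −1.42 to −3.54 and RTKN2 from −1.30 to −3.25, while CD40 is above 0 throughout.

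Of the other 9 receptors, 6 passed the filter on low counts and were tested with edgeR among 16835 genes. A gene was called at an adjusted p under 0.05, whatever its fold change. With Ento, 2 of the 6 were higher (CD40 and TNFRSF13C) and 0 lower, where 4.66% of all tested genes were called higher and 3.66% lower. With AZD, 0 were higher and 1 lower (TNFRSF17), against 9.57% and 12.7% of all genes. With Ento+AZD, 2 were higher (CD40 and TNFRSF13C) and 1 lower (TNFRSF17), against 19.2% and 20.8% of all genes. Ento+AZD differed from Ento in CD40 (higher) and TNFRSF17 (lower), where 8.27% and 12.2% of genes were called. It differed from AZD in CD40 and TNFRSF13C (both higher), where 5.85% of genes were called higher and 6.04% lower. All 10 of these calls rest on the replicate term of the model and were lost without it. The interaction was called for 0 of the 6 receptors and for 0% of all genes by edgeR. At an unadjusted p under 0.05 it reached 0 of the 6 receptors and 1652 of 16835 genes. DESeq2 called 7 of 16835 genes and 0 receptors. With only 6 receptors, nothing about them is read from these counts of 0.

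**Figure D3:**
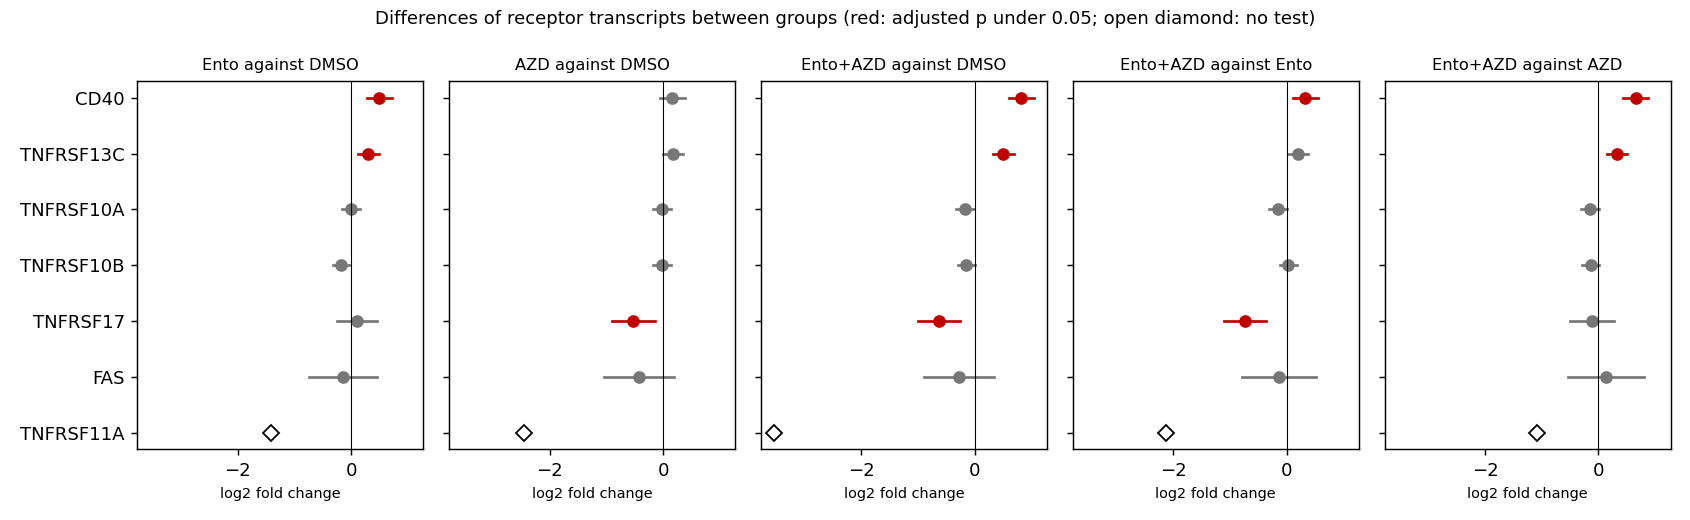
Fitted log2 fold change (horizontal axis) of 7 receptor genes in 5 comparisons between groups of 3 libraries, with 95% intervals of the edgeR fit. Red marks an adjusted p under 0.05, as for CD40 in 4 of the 5 comparisons, and the open diamonds are TNFRSF11A, which was not tested.

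CD40, the receptor for the T-cell ligand CD40LG, was called higher than with DMSO after Ento and after Ento+AZD. The step from Ento to Ento+AZD was less certain, as given below. The gene lies on chromosome 20 (46118271 to 46129863, plus strand, 9 exons). In the order of replicates 1 to 3, CD40 stood at 67.4, 75.0 and 54.4 CPM with DMSO, 79.3, 139.9 and 68.4 with Ento, 70.0, 95.3 and 58.5 with AZD, and 117.2, 147.9 and 88.3 with Ento+AZD. All Ento+AZD libraries were above all DMSO libraries, whereas the Ento and AZD libraries overlapped with DMSO. The means were 65.6 ± 10.4 CPM with DMSO and 118 ± 29.8 with Ento+AZD (SD, n = 3 each).

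Relative to DMSO, CD40 was 1.77-fold higher with Ento+AZD (log2 fold change 0.82, SE 0.10, adjusted p = 4.47e-05, edgeR). Within the replicate numbers the log2 ratio was 0.80, 0.98 and 0.70. The call held when any 1 library was left out, with log2 fold changes of 0.70 to 0.89, but not in a model of the groups alone, with no replicate term (adjusted p = 0.0573). With Ento alone CD40 was 1.41-fold higher (0.49, SE 0.10, adjusted p = 0.0107, edgeR), a call lost without Ento replicate 2 (0.34, adjusted p = 0.0794) and with no replicate term (adjusted p = 0.475). With AZD alone the difference was 0.16 (95% interval −0.06 to 0.39, adjusted p = 0.276).

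Ento+AZD was also above AZD in CD40, by 0.66 (SE 0.10, adjusted p = 0.00219, edgeR), in all 3 pairs and with 0.61 to 0.68 when any 1 library was left out. With no replicate term this call was lost (adjusted p = 0.401). Against Ento the difference was 0.33 (SE 0.10, adjusted p = 0.0365), a call lost with no replicate term (adjusted p = 0.578). It was also lost without Ento replicate 1 or 3, AZD replicate 2, or Ento+AZD replicate 1, 2 or 3, with adjusted p between 0.0543 and 0.225.

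TNFRSF13C, which encodes the BAFF receptor BAFF-R, rose with Ento and with Ento+AZD. It lies on chromosome 22 (41922032 to 41926806, minus strand, 3 exons). Its level was 144.7, 167.7 and 106.8 CPM with DMSO, 156.6, 237.1 and 128.8 with Ento, 144.5, 194.4 and 131.5 with AZD, and 191.3, 235.1 and 163.2 with Ento+AZD. Replicate 2 was the highest and replicate 3 the lowest library of each group, and each exposed group overlapped with DMSO. TNFRSF13C was 1.41-fold higher with Ento+AZD than with DMSO (0.50, SE 0.08, adjusted p = 0.000393, edgeR), with log2 ratios of 0.40, 0.49 and 0.61 in the pairs. This call held without any 1 library, and was lost with no replicate term (adjusted p = 0.166).

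TNFRSF13C rose 1.23-fold with Ento alone (0.30, SE 0.08, adjusted p = 0.0425, edgeR), close to the threshold. The call was lost without Ento replicate 1, 2 or 3, DMSO replicate 2 or 3, AZD replicate 2 or 3, or Ento+AZD replicate 1 or 3, with adjusted p between 0.0548 and 0.286. It was lost as well with only the 2 groups in the fit (0.105) and with no replicate term (0.649). Ento+AZD was above AZD by 0.33 (SE 0.08, adjusted p = 0.0223, edgeR), which was lost without AZD replicate 1 (0.124) or 2 (0.0942), Ento+AZD replicate 1 (0.0826) or 3 (0.105), and with no replicate term (0.584). The difference was 0.17 for AZD against DMSO (95% interval −0.01 to 0.35, adjusted p = 0.164) and 0.20 for Ento+AZD against Ento (0.02 to 0.38, adjusted p = 0.103). The latter was called without Ento replicate 2 (0.30, adjusted p = 0.0320).

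TNFRSF17 encodes BCMA, the receptor for APRIL and BAFF that is characteristic of plasma cells, and it fell in both groups that received AZD. The gene lies on chromosome 16 (11965210 to 11968068, plus strand, 3 exons). In the order of replicates 1 to 3 its level was 17.9, 14.7 and 12.6 CPM with DMSO, 18.9, 14.4 and 14.8 with Ento, 11.5, 14.0 and 6.44 with AZD, and 13.5, 9.91 and 6.26 with Ento+AZD. Every AZD and Ento+AZD library was below the DMSO library of the same number, although the groups overlapped. All Ento+AZD libraries were below all Ento libraries.

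The log2 fold change of TNFRSF17 against DMSO was −0.63 with Ento+AZD (SE 0.18, adjusted p = 0.0106, edgeR), 1.55-fold lower, and −0.53 with AZD (SE 0.17, adjusted p = 0.0433), 1.44-fold lower. The first call was lost without Ento+AZD replicate 3 (−0.52, adjusted p = 0.0611) and with no replicate term (0.171). The second was lost without DMSO replicate 1 or 3, AZD replicate 1 or 3 or Ento replicate 1 (adjusted p between 0.0630 and 0.238), and with no replicate term (0.361). Ento+AZD was below Ento by −0.74 (SE 0.18, adjusted p = 0.00971, edgeR), lost without Ento replicate 3 (0.0757), Ento+AZD replicate 3 (0.0583) and with no replicate term (0.237). Ento alone differed from DMSO by 0.10 (95% interval −0.26 to 0.46), and Ento+AZD from AZD by −0.11 (−0.50 to 0.28). The plasma-cell list, which did not include TNFRSF17, was higher in the exposed groups through XBP1 as given above, and the part of such cells or of RNA per cell in these values was not tested. In bulk RNA a change in the number of cells and in RNA per cell cannot be told apart.

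TNFRSF13B, which encodes TACI, the remaining receptor for BAFF and APRIL, was not detectable above the limit of 3 counts. It had 3, 0 and 1 counts with DMSO, 0, 1 and 0 with Ento, 0, 0 and 2 with AZD, and 0, 1 and 0 with Ento+AZD. The receptors for TNF itself were as low. TNFRSF1A, the death-domain receptor TNFR1, had 2, 1 and 1 counts with DMSO and 0 in all 9 exposed libraries. TNFRSF1B, the receptor TNFR2, had 0 counts in every DMSO library, 0, 0 and 1 with Ento, 2 in each AZD library, and 1, 0 and 1 with Ento+AZD. These 3 genes did not exceed the limit of 3 counts in any library, did not pass the filter and have no fold change. TNFRSF13B lies on chromosome 17 (16929816 to 16972118, minus strand), TNFRSF1A on chromosome 12 (6328757 to 6342114, minus strand) and TNFRSF1B on chromosome 1 (12166991 to 12209228, plus strand).

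Both TRAIL death receptors were well expressed, and no difference between exposures passed the test. TNFRSF10A, encoding DR4, lies on chromosome 8 (23190452 to 23225102, minus strand, 10 exons) and TNFRSF10B, encoding DR5, on the same chromosome (23020133 to 23069031, minus strand, 9 exons). TNFRSF10A stood at 48.1, 51.5 and 52.8 CPM with DMSO, 50.7, 52.6 and 48.7 with Ento, 47.2, 53.0 and 50.3 with AZD, and 45.2, 46.6 and 43.9 with Ento+AZD. The Ento+AZD libraries were the lowest and did not overlap with those of any other group. The difference from DMSO was nevertheless small, at −0.17 (95% interval −0.33 to −0.01, adjusted p = 0.0903, edgeR), and did not pass the test. The intervals with Ento (−0.16 to 0.15) and AZD (−0.18 to 0.14) lay within 0.18 of no difference.

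TNFRSF10B had 84.7, 87.5 and 100.04 CPM with DMSO, 74.7, 81.0 and 83.5 with Ento, 87.8, 89.4 and 91.4 with AZD, and 75.0, 80.3 and 89.5 with Ento+AZD. All Ento libraries were below all DMSO libraries, and Ento+AZD was below DMSO in each of the 3 pairs, with log2 ratios of −0.17, −0.12 and −0.16. The fitted differences did not pass the test in edgeR, at −0.19 with Ento (95% interval −0.33 to −0.04, adjusted p = 0.117) and −0.15 with Ento+AZD (−0.30 to 0.00, adjusted p = 0.0954). Exons on the opposite strand overlap 13.4% of the TNFRSF10A transcript (TNFRSF10A-AS1 and TNFRSF10A-DT) and 9.4% of that of TNFRSF10B (RHOBTB2), and reads of these genes cannot be told apart where the counting took no account of strand.

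FAS, the receptor for FAS ligand, lies on chromosome 10 (88953813 to 89029605, plus strand, 9 exons) and was low, with 11, 11 and 71 counts with DMSO, 8, 13 and 47 with Ento, 11, 8 and 36 with AZD, and 7, 16 and 31 with Ento+AZD. Replicate 3 was the highest library of every group. Its mean over the 4 groups was 2.15 CPM, against 0.395 for replicate 1 and 0.590 for replicate 2, a 5.44-fold range. The differences between exposures were smaller than this and did not pass the test, at −0.15 (95% interval −0.74 to 0.45) with Ento, −0.42 (−1.04 to 0.20) with AZD and −0.28 (−0.90 to 0.34) with Ento+AZD against DMSO. The same ratio of the highest to the lowest replicate number was 1.70 for CD40, 1.57 for TNFRSF13C, 1.55 for TNFRSF17, 1.13 for TNFRSF10B and 1.07 for TNFRSF10A. What a replicate number stands for is not given in the labels, and its part in the level of FAS was not tested.

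To set the genes side by side, CPM was divided by the length of the main annotated transcript. On this scale the level with DMSO was 39.0 ± 6.20 CPM per kb (SD, n = 3) for CD40, 35.6 ± 7.84 for TNFRSF13C, 22.7 ± 2.05 for TNFRSF10B, 18.9 ± 0.906 for TNFRSF10A and 16.9 ± 3.03 for TNFRSF17. FAS (0.337 ± 0.362) and TNFRSF11A (0.298 ± 0.108) followed, and TNFRSF13B, TNFRSF1A and TNFRSF1B were at most 0.0380. CD40 and TNFRSF13C overlapped, as did TNFRSF10A and TNFRSF17, and FAS and TNFRSF11A. The order was the same for these 7 genes in the exposed groups, while the mean of CD40 was 70.0 and that of TNFRSF11A 0.0254 CPM per kb with Ento+AZD. It depends on the length used, since the merged exons of CD40 measure 5619 nt against 1682 nt for its main transcript, and with merged exons CD40 ranked 5 with DMSO and TNFRSF13C 1.

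**Figure D4:**
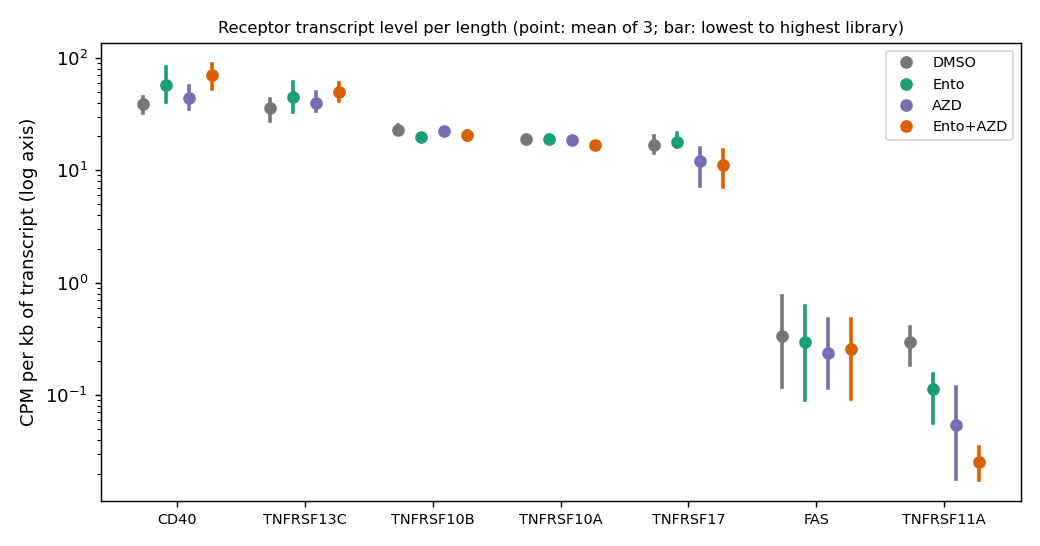
Level of 7 receptor transcripts in CPM per kb of the main transcript (vertical log axis), by gene (horizontal axis) and exposure (colour), with the mean of 3 libraries as a point and the lowest to highest library as a bar. CD40 and TNFRSF13C lead with 39.0 and 35.6 with DMSO, and TNFRSF11A is spread from 0.298 with DMSO to 0.0254 with Ento+AZD.

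The other genes of the pathway were taken from 5 lists. Of 19 further receptors 8 could be tested, and 1 was higher with Ento, 2 were lower with AZD and 3 were lower with Ento+AZD, where 4.66% of all genes were called higher with Ento, 12.7% lower with AZD and 20.8% lower with Ento+AZD. Their median log2 fold change with Ento+AZD was −0.56, against 0.01 for all genes tested. This median did not hold for the list as a whole. The split by counts given next was made after the values were seen, and the part of count level was not tested. CD27, TNFRSF10D and RELT, with 16057 to 30324 counts in all libraries together, were at 0.06, 0.16 and 0.04. The other tested receptors, with 111 to 2718 counts, were at −1.14 to −0.41. TNFRSF14, the receptor HVEM, had 52, 63 and 36 counts with DMSO and 26, 41 and 9 with Ento+AZD, and fell 1.74-fold (−0.80, SE 0.23, adjusted p = 0.0122, edgeR). This call was lost without Ento+AZD replicate 3 (0.0574) and with no replicate term (0.285). TNFRSF14 was also called lower with AZD alone (−0.84, SE 0.23, adjusted p = 0.0176, edgeR), lost in 4 of 17 alternatives. Its difference of Ento+AZD from AZD was 0.04 (adjusted p = 0.933). EDA2R, a receptor for ectodysplasin, fell 1.33-fold with Ento+AZD (−0.41, SE 0.13, adjusted p = 0.0188), which was lost without DMSO replicate 2 (0.0603), Ento+AZD replicate 1 (0.0984) or 2 (0.0712) and with no replicate term (0.0579). The third, TNFRSF21, which encodes the death receptor DR6, had 244 counts in all libraries together and was below the level at which genes were named.

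CD27, a receptor of memory B cells and the partner of CD70, was singled out after its values were seen, because the single agents moved it in opposite directions. The p-values and refits given for CD27 are therefore a description and not an independent test. It had 3186, 2739 and 2344 counts with DMSO, 3310, 3472 and 2605 with Ento, 1889, 2106 and 1405 with AZD, and 2375, 3219 and 1674 with Ento+AZD. CD27 fell with AZD by 0.42 on the log2 scale (SE 0.09, adjusted p = 0.00565, edgeR), in all fits with 1 library left out. It rose by 0.37 with Ento (SE 0.09, adjusted p = 0.0230), a call lost without Ento replicate 1, 2 or 3 or DMSO replicate 2 or 3, with adjusted p up to 0.107. With Ento+AZD it differed from DMSO by 0.06 (adjusted p = 0.612), from AZD by 0.49 (adjusted p = 0.00541) and from Ento by −0.30 (SE 0.09, adjusted p = 0.0290). The last call was lost without Ento replicate 1, 2 or 3 or Ento+AZD replicate 1 or 3, with adjusted p up to 0.166. With no replicate term the adjusted p was 0.319 with AZD, 0.550 with Ento, 0.432 for Ento+AZD against AZD and 0.493 against Ento.

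Among 18 ligands 10 were tested. With Ento 3 rose and 0 fell, with AZD 1 rose and 0 fell, and with Ento+AZD 4 rose and 2 fell, with medians of 0.26, −0.02 and 0.03. Over all genes 4.66% rose and 3.66% fell with Ento, 9.57% and 12.7% with AZD, and 19.2% and 20.8% with Ento+AZD. LTB, which encodes lymphotoxin beta, had 250, 305 and 184 counts with DMSO, 743, 1221 and 694 with Ento, 353, 275 and 215 with AZD, and 560, 728 and 351 with Ento+AZD. The Ento and Ento+AZD libraries were all above those of DMSO. LTB rose 4.08-fold with Ento (2.03, SE 0.15, adjusted p = 4.82e-06, edgeR) and 2.65-fold with Ento+AZD (1.41, SE 0.15, adjusted p = 1.55e-05), and both calls held in every alternative, the model with no replicate term included (largest adjusted p 0.0229 and 0.0165). TNFSF10, which encodes TRAIL, rose with Ento from 2.73 ± 0.463 to 5.21 ± 1.04 CPM (SD, n = 3 each; 0.91, SE 0.20, adjusted p = 0.0126) and was at 4.58 ± 1.11 CPM with Ento+AZD (0.72, SE 0.20, adjusted p = 0.0110).

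The Ento call of TNFSF10 was lost without Ento replicate 1 (0.0665) or 2 (0.0647), DMSO replicate 3 (0.0541) and with no replicate term (0.233). Its Ento+AZD call was lost without DMSO replicate 2 (0.0590) or 3 (0.0506) and with no replicate term (0.0892). TNFSF8, the CD30 ligand, rose with Ento (0.52, SE 0.08, adjusted p = 0.00156, edgeR) and Ento+AZD (0.49, SE 0.08, adjusted p = 0.000320), calls lost only with no replicate term (0.308 and 0.0853). CD70, the ligand of CD27, fell with Ento+AZD (−0.62, SE 0.14, adjusted p = 0.00379), likewise lost only with no replicate term (0.185). TNFSF15 rose with Ento+AZD (0.44, SE 0.15, adjusted p = 0.0309), and this was lost without DMSO replicate 2 (0.153) or 3 (0.106), Ento+AZD replicate 2 (0.0713) or 3 (0.189), with only the 2 groups in the fit (0.0692) and with no replicate term (0.264). The RANK ligand gene TNFSF11 and the FAS ligand gene FASLG had 0 counts in all libraries together, CD40LG 6 and the BAFF gene TNFSF13B 32.

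TNF, the ligand of both receptors that were near 0, was also singled out after its values were seen, so that its p-values and refits are likewise a description. It was too low for the rule by which ligands were named, at a mean of 0.702 CPM. The counts were 16, 11 and 17 with DMSO, 9, 11 and 15 with Ento, 38, 19 and 32 with AZD, and 8, 2 and 5 with Ento+AZD. All AZD libraries were above and all Ento+AZD libraries below those of DMSO. TNF was 5.36-fold lower with Ento+AZD than with AZD (−2.42, SE 0.37, adjusted p = 0.00181, edgeR), a call that held without any 1 library and was lost with no replicate term (0.0541). Against DMSO it was 2.30-fold higher with AZD (1.20, SE 0.30, adjusted p = 0.0118), which was lost without AZD replicate 1 or 3, DMSO replicate 3 (adjusted p up to 0.0558) and with no replicate term (0.0918). It was 2.33-fold lower with Ento+AZD (−1.22, SE 0.41, adjusted p = 0.0296), lost without DMSO replicate 1, 2 or 3, Ento+AZD replicate 2 or 3 (up to 0.113) and with no replicate term (0.0745). The interaction was −2.30 (SE 0.52), with an adjusted p of 0.444.

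All 22 genes of the TRAF and IAP adaptor list were tested, of which 2 rose and 2 fell with Ento, 1 rose and 2 fell with AZD, and 4 rose and 4 fell with Ento+AZD. Over all genes 4.66% rose and 3.66% fell with Ento, 9.57% and 12.7% with AZD, and 19.2% and 20.8% with Ento+AZD. The counts of this list with Ento+AZD were near that share. TRAF1, an adaptor that is itself a target of NF-κB, had 1286, 1156 and 1519 counts with DMSO, 707, 563 and 434 with Ento, 1052, 613 and 607 with AZD, and 624, 668 and 360 with Ento+AZD. All exposed libraries were below all DMSO libraries. TRAF1 fell 2.09-fold with Ento (−1.06, SE 0.15, adjusted p = 0.000666, edgeR), 1.57-fold with AZD (−0.65, SE 0.14, adjusted p = 0.00684) and 2.02-fold with Ento+AZD (−1.02, SE 0.15, adjusted p = 0.000122). The last call held in every alternative, the Ento call was lost with no replicate term (0.0582), and the AZD call without AZD replicate 3 (0.0526) and with no replicate term (0.110).

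TRAF2, which binds many of these receptors, fell with Ento+AZD (−0.46, SE 0.10, adjusted p = 0.00166, edgeR), and the kinase gene IKBKB rose (0.43, SE 0.07, adjusted p = 0.000229). Both calls held in every alternative. TRAF2 was also called lower with AZD alone (−0.34, SE 0.09, adjusted p = 0.0203, edgeR), lost in 5 of 17 alternatives. IKBKB was also called higher with Ento alone (0.27, SE 0.07, adjusted p = 0.0259), lost in 6 of 17. With Ento+AZD, RNF31 and SHARPIN, subunits of the linear ubiquitin ligase complex, rose by 0.30 (SE 0.08, adjusted p = 0.0111) and 0.28 (SE 0.09, adjusted p = 0.0285). The RNF31 call was lost without Ento+AZD replicate 3 (0.0761), with only the 2 groups in the fit (0.0609) and with no replicate term (0.132). That of SHARPIN was lost without DMSO replicate 3 (0.138), Ento+AZD replicate 1 (0.0926) or 3 (0.106), with only the 2 groups (0.0927), without the filter (0.0596) and with no replicate term (0.141).

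Of 14 genes of death-domain signalling 13 were tested, with 0 calls for Ento, 3 higher and 2 lower with AZD, and 3 higher and 6 lower with Ento+AZD. Over all genes 4.66% were called higher and 3.66% lower with Ento, 9.57% and 12.7% with AZD, and 19.2% and 20.8% with Ento+AZD. TRADD, the adaptor of TNFR1, had 333, 296 and 247 counts with DMSO, 333, 399 and 274 with Ento, 380, 358 and 377 with AZD, and 460, 459 and 388 with Ento+AZD. It rose 1.83-fold with Ento+AZD (0.87, SE 0.13, adjusted p = 2e-04, edgeR), and the kinase gene RIPK1 rose 1.37-fold (0.45, SE 0.09, adjusted p = 0.00128). Both calls held in every alternative. With AZD alone TRADD also rose (0.55, SE 0.13, adjusted p = 0.0107, edgeR), as did RIPK1 (0.38, SE 0.09, adjusted p = 0.00914). The AZD calls were lost in 3 and 2 of 17 alternatives. Ento+AZD differed from AZD by 0.31 for TRADD (adjusted p = 0.134) and by 0.07 for RIPK1 (adjusted p = 0.653). BID, a caspase-8 substrate, fell 1.36-fold with Ento+AZD (−0.44, SE 0.09, adjusted p = 0.00168), a call lost only with no replicate term (0.0621).

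CFLAR, which encodes the caspase-8 inhibitor c-FLIP, had 645, 592 and 748 counts with DMSO, 629, 641 and 542 with Ento, 352, 282 and 224 with AZD, and 373, 559 and 293 with Ento+AZD. In CPM, all AZD libraries (10.8 to 15.1) were below those of every other group. CFLAR fell 2.03-fold with AZD (−1.02, SE 0.14, adjusted p = 0.000433, edgeR), in every alternative. With Ento+AZD it fell 1.36-fold (−0.45, SE 0.13, adjusted p = 0.0158), which was lost without DMSO replicate 3 (0.103), Ento+AZD replicate 1 (0.0879) or 3 (0.0965) and with no replicate term (0.129). CFLAR was higher with Ento+AZD than with AZD by 0.58 (SE 0.14, adjusted p = 0.0173, edgeR), a comparison for which the alternatives were not run. FAIM, an inhibitor of FAS-mediated death, fell with Ento+AZD (−0.67, SE 0.20, adjusted p = 0.0164), lost without DMSO replicate 2 (0.0564), Ento+AZD replicate 1 (0.0627) or 3 (0.0563) and with no replicate term (0.112).

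Of 13 NF-κB subunits and feedback inhibitors 12 were tested, and the only call against DMSO was NFKBIE, the inhibitor IκBε, which was lower with Ento+AZD (−0.38, SE 0.11, adjusted p = 0.0132, edgeR). It was lost without DMSO replicate 1 (0.0809), Ento+AZD replicate 1 (0.0997), with only the 2 groups in the fit (0.0505) and with no replicate term (0.0973). Of all genes, 4.66% were called higher and 3.66% lower with Ento, 9.57% and 12.7% with AZD, and 19.2% and 20.8% with Ento+AZD. The medians of this list were −0.03 with Ento, 0.06 with AZD and 0.00 with Ento+AZD. The subunits NFKB1, NFKB2, REL, RELA and RELB had log2 fold changes between −0.16 and 0.34 with Ento+AZD.

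**Figure D5:**
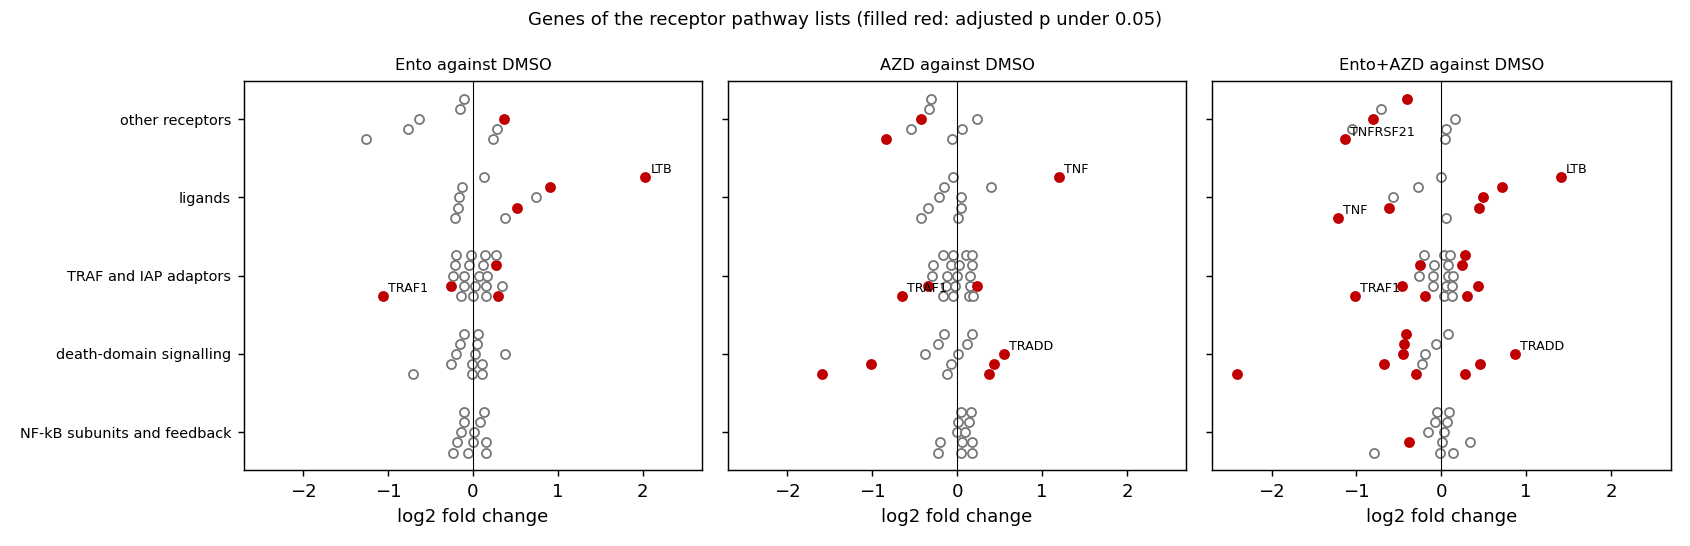
Log2 fold change against DMSO (horizontal axis) of every tested gene in 5 pathway lists (rows; vertical offset within a row has no meaning), for Ento, AZD and Ento+AZD, with genes at an adjusted p under 0.05 filled red. LTB stands apart at 2.03 with Ento, TNF at 1.20 with AZD and at −1.22 with Ento+AZD.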

How the data were processed

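Single reads of 75 bp were trimmed (CutAdapt, run by TrimGalore) and aligned to GRCh38.p13, and the authors counted them per gene with Rsubread. The deposited values are raw counts per gene symbol. The submitters' processing notes also name hg19, without its role. Strand setting and annotation release are not given in the sources used here. A second deposited table of log2 values was not used.

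All 12 libraries were fitted with edgeR 4.0.16 in R 4.3.3 (filterByExpr by group, minimum count 10 and total 15; TMM; quasi-likelihood F-test; Benjamini-Hochberg adjustment over 16835 genes), with treatment group and replicate number as terms. The study's methods name treatment group and an undefined batch, for which the replicate number stands here as an assumption. Standard errors were derived from the fold change and the F statistic. Libraries of the same number deviated together from their group means (r from 0.213 to 0.703, median 0.435, in 18 pairs), and the numbers come from the labels. For libraries of different number and group, r ran from −0.627 to 0.325 (median −0.234, 36 pairs), so that the ranges overlapped. Libraries of 1 group differed beyond sampling noise (chi-square per degree of freedom 8.21 or more).

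Members and lists were chosen with earlier results of these data known. List genes were named if called with Ento+AZD against DMSO at a mean of at least 1 CPM, at most 5 per list by size of change. CD27, TNF, TNFRSF21 and genes given only to describe a list are outside this rule. Alternatives were another normalization, DESeq2 1.42.0, no filter, no replicate term, only the 2 groups compared, and each library left out. Coordinates, exons and lengths are from GENCODE v44 on GRCh38, and promoters from RefSeq.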

Additional observations from a re-analysis of the deposited data

How the results depend on the processing

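Without the replicate block, 0 receptor genes were called in each comparison, so that all 10 calls rest on pairing libraries by number. With only the 2 groups compared in the fit, 1 receptor gene was called for Ento against DMSO. RLE normalization, DESeq2 and the absence of a filter lost 0 of the 10 calls. With 1 library left out, the number of receptor genes called ranged from 0 to 2 for Ento, 0 to 1 for AZD and 2 to 3 for Ento+AZD against DMSO, from 0 to 3 for Ento+AZD against Ento and from 1 to 2 against AZD, and stayed at 0 for the interaction. Under leave-one-out, 3 calls held throughout, those of CD40 against DMSO and against AZD and that of TNFRSF13C against DMSO, each with Ento+AZD. TNFRSF11A was chosen for its fall in these libraries, so its refits are a description and no support for that fall. Against DMSO it kept its direction in all 17 alternatives for each exposure. Its log2 fold changes lay between −1.60 and −1.33 for Ento, −3.48 and −1.98 for AZD and −3.85 and −3.10 for Ento+AZD. The 5 genes most like TNFRSF11A were the same by absolute differences. Of 29 calls of the named list genes against DMSO, 21 were lost without the replicate block and 13 held without any 1 library. The cause was not tested. Depth limits TNFRSF13B, TNFRSF1A and TNFRSF1B, at no more than 3 counts per library. It also limits TNFRSF11A with Ento+AZD and in AZD replicates 2 and 3 (4 and 3 counts).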
